A study of Mus musculus with 4 samples.

Results

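The peptide precursor genes described here are Cck, Crh, Adcyap1, Nts, Trh, Cartpt, Pnoc, Tac2 and Grp, which encode neuropeptides found in cortex or its afferents other than the usual interneuron peptides. They were chosen by name, and every probe set annotated to one of these symbols alone was taken, which gave 10 probe sets of 9 genes, out of 18193 genes named in the table and 45037 probe sets tested. Adcyap1 had 2 probe sets and each other gene 1, and 0 probe sets named a member together with another gene.

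The study measured total RNA of punched prelimbic cortex, a part of the medial prefrontal cortex, on Affymetrix 3' arrays. All mice were male and were sampled on postnatal day 90. The fluoxetine group, 2 arrays, came from prenatal exposure to the antidepressant fluoxetine, which blocks serotonin reuptake, and the untreated group, 2 arrays, consisted of control males without that exposure. Strain, dose, route and gestational window, and whether an array held 1 animal or a pool, are not stated in the labels. The arrays of a group are described as biological duplicates. A p-value here sets the group difference against the spread between these arrays, with a variance partly pooled over probe sets. Litter and animal effects cannot be told apart from treatment where littermates shared a group.

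Neuropeptides are cut from larger precursors in the regulated secretory pathway, stored in dense-core vesicles and released on strong or repetitive firing. They act mostly through G-protein-coupled receptors, at longer range and for longer than fast transmitters. In cortex cholecystokinin is made by many pyramidal cells and by a class of basket interneurons, corticotropin-releasing hormone and the nociceptin precursor mainly by interneurons, and PACAP, the product of Adcyap1, mainly by excitatory neurons. CART peptide and neurotensin are also abundant in the striatum and nucleus accumbens, which lie close to the punched region.

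The start regions of the genes that carry the comparison are shown first, since several of these genes are textbook targets of cyclic AMP signalling. RefSeq promoters (assembly GRCm38.p6) were at hand for 6 of the 9 genes. The 250 bases before the start site of Nts and Cartpt, the members with the most negative differences, and of Cck, whose difference was near 0, are printed 5′ to 3′ on the gene's own strand, which is the minus strand for all 3. Capitals mark matches, on either strand, to the cyclic AMP response element TGACGTCA, to TGACG, which lies within it, to the AP-1 element TGAGTCA and to TATAAA.
Nts, chr10:102490419-102490668: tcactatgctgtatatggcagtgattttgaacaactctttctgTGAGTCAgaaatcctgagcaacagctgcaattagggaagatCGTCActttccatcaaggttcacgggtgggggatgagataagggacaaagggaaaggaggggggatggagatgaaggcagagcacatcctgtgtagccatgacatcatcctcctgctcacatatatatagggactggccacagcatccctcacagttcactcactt
Cartpt, chr13:99900684-99900933: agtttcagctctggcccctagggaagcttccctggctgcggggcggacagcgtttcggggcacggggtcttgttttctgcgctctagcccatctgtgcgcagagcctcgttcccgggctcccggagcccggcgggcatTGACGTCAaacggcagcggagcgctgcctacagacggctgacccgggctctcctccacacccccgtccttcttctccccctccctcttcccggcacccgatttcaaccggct
Cck, chr9:121495695-121495944: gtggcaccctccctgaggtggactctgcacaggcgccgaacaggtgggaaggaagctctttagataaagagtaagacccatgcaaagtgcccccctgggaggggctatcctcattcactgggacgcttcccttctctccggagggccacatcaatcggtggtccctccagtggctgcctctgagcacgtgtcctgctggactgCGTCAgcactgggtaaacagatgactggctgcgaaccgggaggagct
Cartpt held the full element at −112 to −105 from its start site, and its matches to the shorter motif are part of the same letters. Of 32851 promoters in the same table, 1.55% held the full element in the same window. Nts held the AP-1 element at −207 to −201, a motif found in 4.46% of promoters, and the shorter motif on the other strand at −166 to −162. Cck held the shorter motif on the other strand at −47 to −43, and 17.8% of promoters held it. The last of the motifs, TATAAA, found in 12.4% of promoters, had no match in these 3 windows. Of the windows not printed, Trh matched the shorter motif on the other strand at −96 to −92 and Tac2 matched none of the 4 motifs. Adcyap1 had 2 start sites in the table, whose windows share 1 match to the shorter motif, at −91 to −87 from the first and −242 to −238 from the second, and TATAAA lay at −58 to −53 from the second. These are matches of letters and say nothing of which factor is bound.

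The peptide genes as a set differed little between the groups, and Nts was the 1 member whose difference was larger than the gap between the arrays within either group. The arrays were alike: their median log2 intensities lay between 6.43 and 6.50, and Pearson's r over the probe sets was 0.996 to 0.997 for every pair. Markers of excitatory cortex were present on all arrays, such as Slc17a7, the vesicular glutamate transporter, at 9.46 to 9.51 and the calcium kinase gene Camk2a at 13.89 to 13.95 for its brightest probe set. In the limma fit over all 45037 probe sets, 8.79% had an unadjusted p below 0.05, with 5.46% higher and 3.33% lower with fluoxetine. That is 2459 higher and 1500 lower, which became 3020 and 1040 after each array's median was subtracted, 1626 and 2127 without the intensity trend, and 628 and 638 with 1 probe set for each gene. Only 1 probe set, for the synaptic scaffold gene Homer1, passed at an adjusted p below 0.05 (0.00222%). With 2 arrays in each group an exact two-sided permutation test cannot give a p below 0.333, so tests of single genes rest on limma's pooled variance.

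Of the member probe sets, 1 was lower and 0 higher at an unadjusted p below 0.05 while 9 failed that threshold, and 0 passed after Benjamini-Hochberg adjustment over all probe sets. The count was 0 without fluoxetine replicate 1 and 2 without untreated replicate 1. Differences ran from −0.55 to 0.07 on the log2 scale, with a median of −0.09 against −0.01 over all probe sets tested; 7 were negative and 3 positive. The groups did not overlap for 4 of the 10, namely Crh, higher, and Nts, Cartpt and Pnoc, lower; over all probe sets 17.8% were apart upward and 21.1% downward, 38.9% in all. The difference exceeded the wider of the within-group gaps for 1 of 10, against 26.7% of all probe sets. The share apart in either direction was near that of the whole table, and the share beyond both gaps was below it. In the lower direction 3 of 10 were apart against 21.1%, and 1 of 10, Nts alone, had an unadjusted limma p below 0.05 against 3.33%. Counts this small do not tell the members from the whole table.

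**Figure D1:**
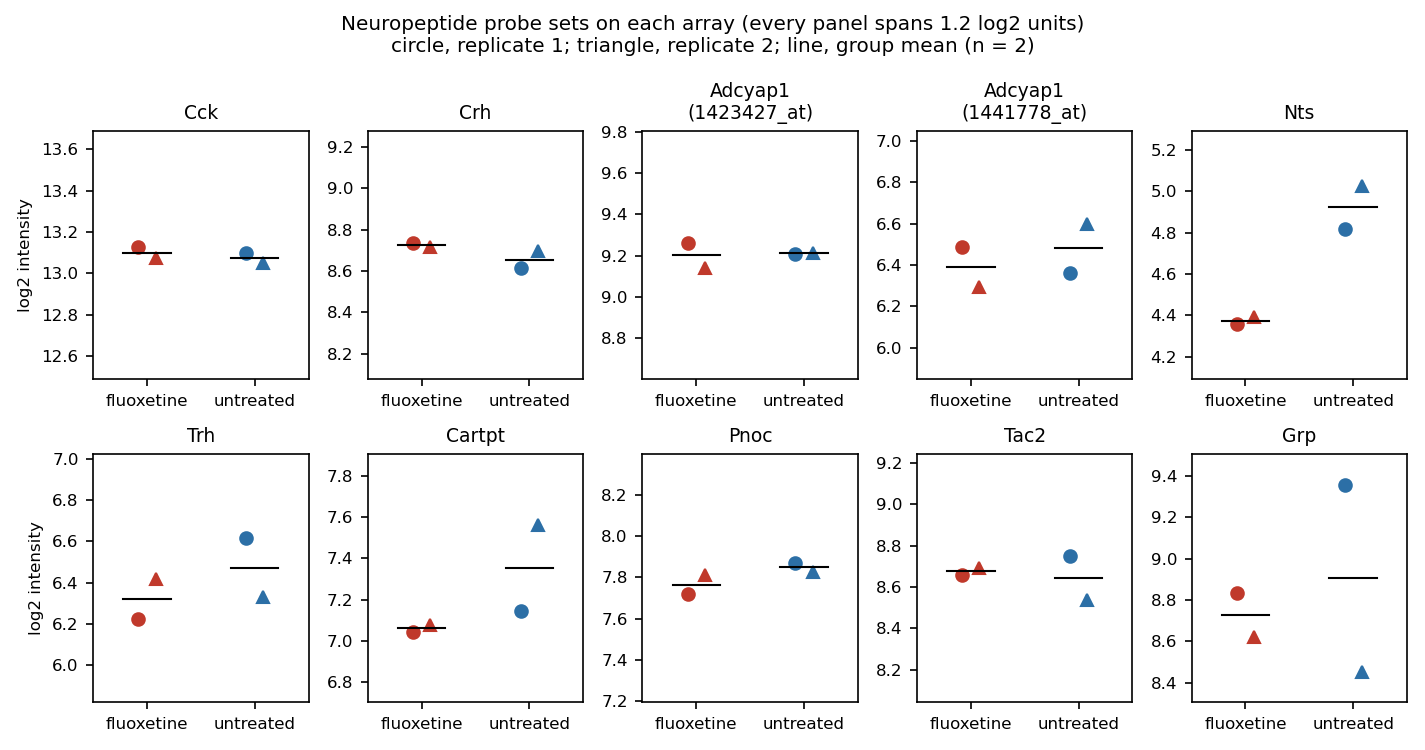
Log2 intensity of each neuropeptide probe set on each array, 1 panel per probe set and every panel spanning the same height, with circles for replicate 1, triangles for replicate 2 and lines for group means (n = 2). Both untreated arrays lie above both fluoxetine arrays for Nts, while the untreated arrays of Grp lie on either side of the fluoxetine arrays and those of Cartpt are far apart.

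Nts encodes the precursor of neurotensin and neuromedin N, peptides that modulate dopamine signalling. It read 4.36 and 4.39 on the fluoxetine arrays and 4.82 and 5.02 on the untreated arrays. Both fluoxetine arrays were lower than both untreated arrays, and the arrays of a group lay closer to each other than to the other group. The difference was −0.55 (SE 0.16, 95% interval −0.92 to −0.17, n = 2 and 2), a level 0.684 times that of untreated mice on this scale (limma, unadjusted p = 0.0105, adjusted p = 0.453). The sign was negative in all 10 alternative settings, and the unadjusted limma p was 0.0526 without fluoxetine replicate 1 and 0.0515 without untreated replicate 2. The probe set was dim, at the 26.7th percentile of mean level. When the table was cut by mean level into 4 equal bins, the second lowest, where Nts lies, held 512 probe sets that were lower and 266 that were higher at an unadjusted limma p below 0.05, and 26.2% had groups apart downward against 10.8% upward. In the brightest bin the corresponding counts were 159 lower and 1236 higher. The part of this lean of dim probe sets in the Nts difference was not tested; after quantile normalization the difference was −0.48 (limma, unadjusted p = 0.0233).

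Cartpt encodes the precursor of CART, a peptide regulated by cocaine and amphetamine that acts in feeding and reward circuits. It stood at 7.05 and 7.08 with fluoxetine and at 7.14 and 7.56 without. The groups did not overlap, but untreated replicate 1 lay nearer to the fluoxetine arrays than to its own group's other array. The difference of −0.29 (SE 0.14, 95% interval −0.63 to 0.05) did not pass (limma, unadjusted p = 0.0832, adjusted p = 0.617). Without untreated replicate 2 it was −0.08 (limma, unadjusted p = 0.478), and without untreated replicate 1 it was −0.50 (limma, unadjusted p = 0.00572).

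The array that set the Cartpt value also stood apart in markers of striatal medium spiny neurons. Of all 45037 probe sets tested, 13135 were highest in untreated replicate 2, and so were 14 of 21 myelin and oligodendrocyte marker probe sets. Of 21 striatal probe sets, from 10 of 12 genes listed, 17 were highest in that array. Their summed intensity was 12.12 and 12.39 (log2 of the sum) on the fluoxetine arrays, 12.21 in untreated replicate 1 and 13.19 in untreated replicate 2, and 0 of these probe sets read at or below 0. Drd2, the dopamine receptor of the indirect pathway, read 8.24 there against 6.34 to 6.87 on the other arrays. Penk, the enkephalin precursor, read 12.31 against 10.98 to 11.39, and Tac1, the precursor of substance P, 11.50 against 10.66 to 10.86. The part of striatal tissue in the Cartpt and Nts differences was not tested as such; without untreated replicate 2 the Nts difference was −0.45 and the Cartpt difference −0.08. In bulk tissue, fewer cells of a type and less RNA per cell cannot be told apart.

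**Figure D2:**
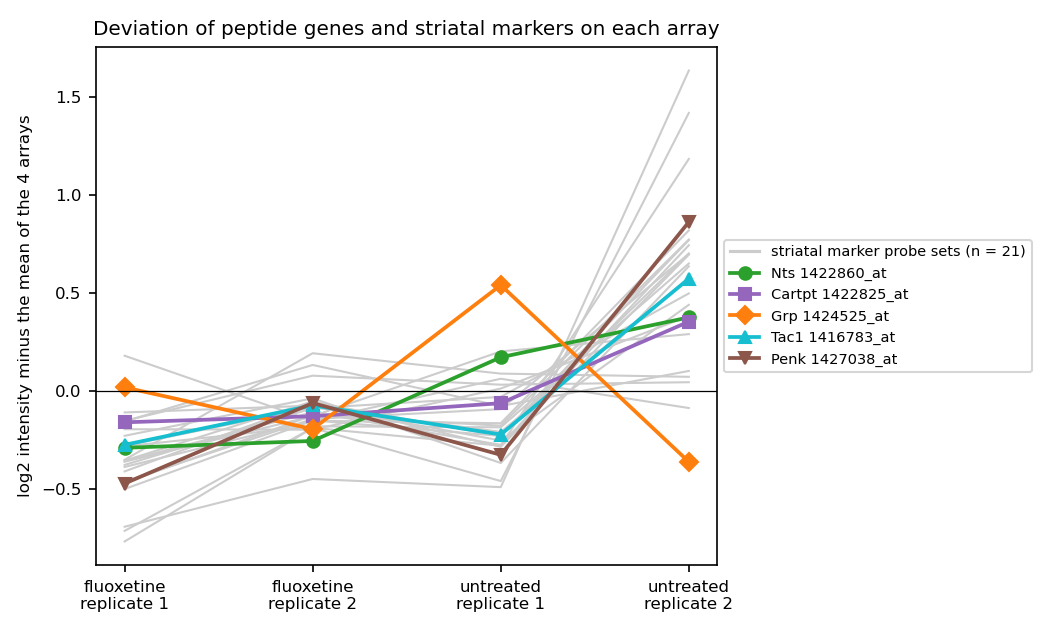
Deviation of log2 intensity from the mean of the 4 arrays, with 1 line per probe set joining its values; grey lines are the 21 striatal marker probe sets and coloured lines Nts, Cartpt, Grp, Tac1 and Penk. Cartpt, Tac1 and Penk are highest, as are 17 of the striatal probe sets, in untreated replicate 2, Nts is above its mean on both untreated arrays, and Grp is highest in untreated replicate 1.

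Grp encodes gastrin-releasing peptide, a bombesin-like peptide made in cortex by subsets of neurons, which excites interneurons that carry its receptor. Its levels were 8.83 and 8.62 with fluoxetine, and 9.36 and 8.45 without. The untreated arrays enclosed both fluoxetine arrays, and their SD of 0.64 was the largest of the 10 member probe sets. The difference was −0.18 (SE 0.25, 95% interval −0.77 to 0.41; limma, unadjusted p = 0.502, adjusted p = 0.878), which became 0.27 without untreated replicate 1 and −0.63 without untreated replicate 2 (limma, unadjusted p = 0.0660 and 0.00301). Untreated replicate 2, the lowest for Grp, was also among the arrays where markers of olfactory areas were high. The mitral cell gene Cdhr1 read 8.25 in fluoxetine replicate 2 and 8.42 in untreated replicate 2, against 6.79 in fluoxetine replicate 1 and 6.59 in untreated replicate 1. Over the 6 olfactory probe sets, from 4 of 4 genes, the summed intensity was 9.51 and 9.94 (log2 of the sum) with fluoxetine and 9.33 and 10.12 without, with 0 read at or below 0. The part of this in the Grp values was not tested.

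Cck, the cholecystokinin precursor, had the smallest SE of the 10 member probe sets. It read 13.13 and 13.07 with fluoxetine and 13.10 and 13.05 without, so that the groups interleaved. The difference was 0.03 (SE 0.04), and its 95% interval of −0.07 to 0.12 bounds the level with fluoxetine between 0.953 and 1.09 times that of untreated mice on this scale (limma, adjusted p = 0.890). The bound rests on the variance model, since the SE was 0.08 without the intensity trend and 0.06 after each array's median was subtracted.

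Crh encodes corticotropin-releasing hormone, which starts the hormonal stress response in the hypothalamus and in cortex is made by local interneurons. Its levels of 8.73 and 8.71 with fluoxetine lay just above those of 8.62 and 8.69 without. The groups did not overlap, yet the nearest arrays of the groups were closer than the untreated arrays were to each other. The difference of 0.07 (SE 0.07, 95% interval −0.10 to 0.24) did not pass (limma, unadjusted p = 0.372, adjusted p = 0.819).

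Adcyap1, which encodes the adenylate cyclase activator PACAP, was read by 2 probe sets. The brighter one, 1423427_at, gave 9.26 and 9.14 with fluoxetine and 9.21 on both untreated arrays. The dimmer one, 1441778_at, gave 6.49 and 6.29 with fluoxetine and 6.36 and 6.60 without. In both probe sets the groups overlapped, and fluoxetine replicate 2 was the lowest array. The differences were −0.01 (SE 0.07, 95% interval −0.18 to 0.16) and −0.09 (SE 0.14, 95% interval −0.41 to 0.24), with adjusted p from limma of 0.989 and 0.891. The former was 0.03 after each array's median was subtracted.

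Pnoc encodes prepronociceptin, the source of nociceptin, an opioid-like peptide that usually dampens neuronal firing. It read 7.72 and 7.81 with fluoxetine and 7.87 and 7.83 without. The fluoxetine arrays were lower, with a distance between the nearest arrays smaller than the gap within the fluoxetine group. The difference was −0.08 (SE 0.09, 95% interval −0.29 to 0.12; limma, unadjusted p = 0.369, adjusted p = 0.818).

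Tac2 encodes neurokinin B, a tachykinin. Its levels were 8.66 and 8.69 with fluoxetine, between those of 8.75 and 8.54 without. The difference was 0.03 (SE 0.09, 95% interval −0.18 to 0.25; limma, adjusted p = 0.947), or −0.01 after quantile normalization.

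Trh encodes thyrotropin-releasing hormone, cut as several copies from 1 precursor. It gave 6.22 and 6.42 with fluoxetine and 6.62 and 6.33 without, and the groups overlapped. The difference was −0.15 (SE 0.15, 95% interval −0.49 to 0.19; limma, unadjusted p = 0.327, adjusted p = 0.798), or −0.01 without untreated replicate 1, the highest array.

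**Figure D3:**
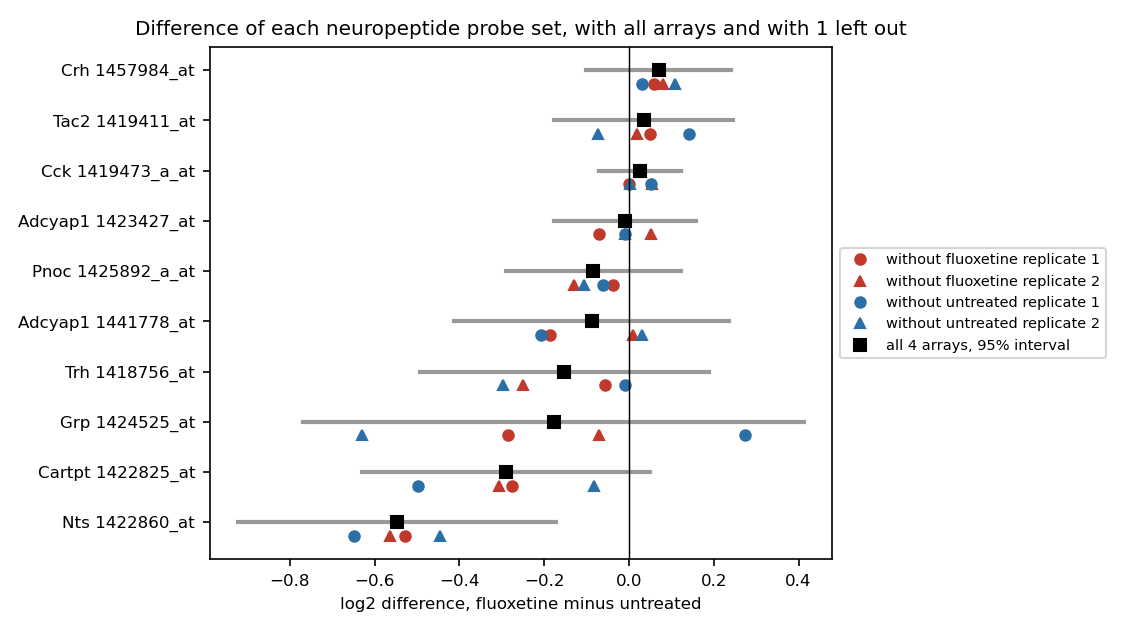
Log2 difference, fluoxetine minus untreated, of each neuropeptide probe set, with squares for all 4 arrays, grey bars for 95% intervals, and coloured symbols for the same difference with 1 array left out. The Nts interval, −0.92 to −0.17, is the one that leaves out 0, Grp moves from −0.63 to 0.27 as either untreated array is left out, and Cck stays close to 0.

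The members shared no array pattern. The highest reading fell in untreated replicate 1 for Trh, Pnoc, Tac2 and Grp, in untreated replicate 2 for Nts, Cartpt and the dimmer Adcyap1 probe set, and in fluoxetine replicate 1 for Cck, Crh and the brighter Adcyap1 probe set. The last group differed by no more than 0.07 in size between treatments. Interneuron markers, 27 probe sets of 16 genes, had a median difference of 0.04, and at an unadjusted limma p below 0.05 3 were higher and 1 lower; their summed intensity was 15.23 and 15.17 (log2 of the sum) with fluoxetine and 15.10 and 15.18 without. Pyramidal neuron markers, 25 probe sets of 9 of the 10 genes listed, had a median of 0.09 with 6 higher and 0 lower, beside 5.46% higher and 3.33% lower over all probe sets, and their summed intensity lay at 15.10 and 15.06 on the fluoxetine arrays and at 15.05 and 15.04 on the others. Astrocyte markers, 15 probe sets of 5 genes, had a median of 0.11 with 6 higher and 0 lower, and their summed intensity, 13.86 and 13.92 with fluoxetine, was above the 13.72 and 13.73 without. The part of these lists in the neuropeptide values was not tested. No marker probe set of these lists read at or below 0.

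The receptors of these peptides were measured by 29 probe sets of 15 genes; the list holds no receptor for CART. The threshold of 0.05 on the unadjusted p was passed by 2 in the higher and 1 in the lower direction and not by 26, beside 5.46% higher and 3.33% lower over all probe sets, and 0 passed after adjustment (lowest adjusted p 0.414). The median difference was −0.03. The count of 3 was 1 without fluoxetine replicate 1, 6 without untreated replicate 1 and 0 with 1 probe set for each gene. The 3 probe sets that passed belong to Oprl1, Cckbr and Crhr2. Those of Oprl1 and Cckbr lie in the second brightest bin of mean level, where 7.09% of probe sets were higher and 2.55% lower.

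Oprl1, the nociceptin receptor and thus the target of the Pnoc product, was read by 3 probe sets. The one that passed, 1422099_a_at, gave 8.51 and 8.44 with fluoxetine and 8.11 and 8.20 without. Its difference was 0.32 (SE 0.08, 95% interval 0.13 to 0.51; limma, unadjusted p = 0.00504, adjusted p = 0.414). The other two differed by 0.14 (SE 0.07) and, for the brightest, 1426204_a_at, by 0.05 (SE 0.07), and in all 3 both fluoxetine arrays were above both untreated arrays. Without fluoxetine replicate 1 the difference of 1422099_a_at was 0.28 and did not pass.

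Cckbr, the main cholecystokinin receptor of the brain, had 2 probe sets. The dimmer, 1460663_at, read 8.87 and 8.80 with fluoxetine and 8.64 and 8.54 without, a difference of 0.25 (SE 0.08, 95% interval 0.07 to 0.43; limma, unadjusted p = 0.0141, adjusted p = 0.462). The brighter, 1454770_at, read 10.81 and 10.77 with fluoxetine and 10.75 and 10.57 without, a difference of 0.13 (SE 0.07, 95% interval −0.03 to 0.29; limma, unadjusted p = 0.0960), which was 0.22 and passed without untreated replicate 1 and was 0.044 without untreated replicate 2 (limma, unadjusted p = 0.485). Both probe sets placed the fluoxetine arrays higher, by different amounts, while the Cck precursor itself differed by 0.03. The difference of 1460663_at did not pass without fluoxetine replicate 1 (0.21) or without untreated replicate 2 (0.20).

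Crhr2, a receptor for urocortins and more weakly for Crh, was read low by both of its probe sets. The one that passed, 1422012_at, gave 4.97 and 4.90 with fluoxetine and 5.37 and 5.46 without, a difference of −0.48 (SE 0.14, 95% interval −0.82 to −0.15; limma, unadjusted p = 0.0115, adjusted p = 0.456). The other, 1450462_at, gave 5.75 and 5.71 against 5.81 and 5.70, a difference of −0.03 (SE 0.13). The readings of this gene therefore disagreed, and the former did not pass without fluoxetine replicate 2 (−0.45). It lies, like Nts, in the bin of mean level where 512 probe sets were lower and 266 higher.

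The other receptors did not pass. The brightest probe set of Crhr1, the main Crh receptor of cortex, differed by −0.05 (95% interval −0.21 to 0.11), that of the PACAP receptor Adcyap1r1 by 0.05 (95% interval −0.09 to 0.19), and that of Sort1, a sorting receptor that binds neurotensin, by −0.03 (95% interval −0.13 to 0.07; 0.01 after each array's median was subtracted). Trhr2, a receptor of thyrotropin-releasing hormone, differed by −0.09 (95% interval −0.35 to 0.17). Trhr, another receptor of this hormone, was picked once its values were known. It differed by 0.36 on 1449571_at (95% interval −0.02 to 0.73) and by −0.32 on 1449572_at (95% interval −0.85 to 0.22). The brightest probe set of Tacr3, the neurokinin B receptor, differed by −0.22 (95% interval −0.50 to 0.06). The dimmer Tacr3 probe sets, 1440803_x_at and 1437029_at, differed by −0.81 and −0.32, with groups that overlapped. Both were highest in untreated replicate 2, at 5.50 and 4.30, against 3.80 to 4.12 and 2.81 to 3.47 on the other arrays. Grpr, the receptor of gastrin-releasing peptide, read 4.44 and 4.39 with fluoxetine and 5.07 and 4.62 without on its brighter probe set, a difference of −0.43 (95% interval −0.88 to 0.02; limma, unadjusted p = 0.0578). It was −0.66 and passed without untreated replicate 2, and was −0.21 without untreated replicate 1 (limma, unadjusted p = 0.288). Untreated replicate 1 was the highest array for Grpr as it was for Grp, and for 12760 of all 45037 probe sets tested. This Grpr probe set lies, like Nts, in the bin of mean level where 512 probe sets were lower and 266 higher. The dimmer Grpr probe set, 1421470_at, differed by −0.11, and its groups overlapped.

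**Figure D4:**
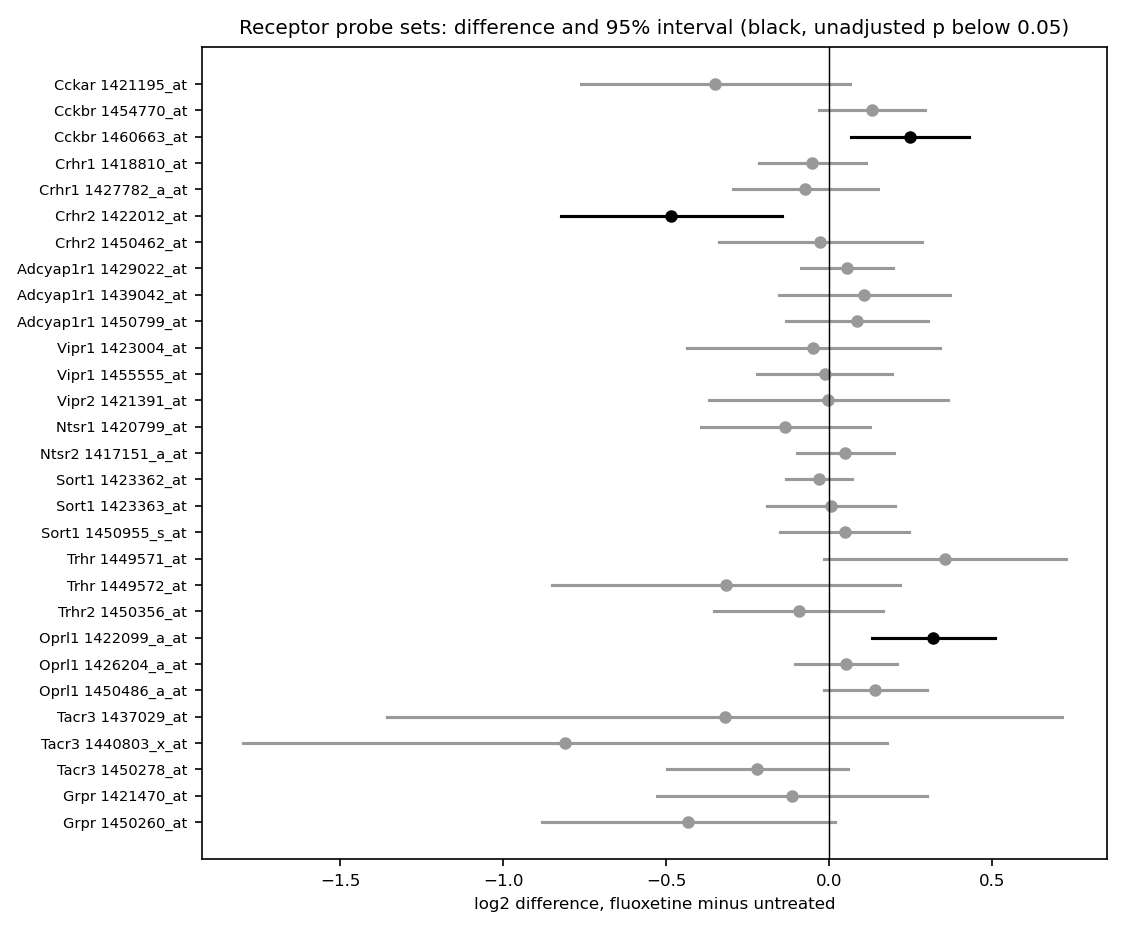
Log2 difference, fluoxetine minus untreated, with its 95% interval for each of the 29 receptor probe sets, in black where the unadjusted p was below 0.05 and in grey otherwise. 1 probe set each of Cckbr (0.25) and Oprl1 (0.32) lies above 0 and 1 of Crhr2 (−0.48) below, while other probe sets of the same genes have intervals that include 0.

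Genes that bind, resemble or degrade these peptides were read by 21 probe sets of 12 genes, with a median difference of 0.04. At an unadjusted p below 0.05, 5.46% of all probe sets were higher and 3.33% lower. Of the 21, 1 passed as higher and 0 as lower, and 20 missed it. The one that passed was a probe set of Tpp2, a large serine peptidase that can inactivate cholecystokinin (1438264_a_at). It read 8.87 and 8.66 with fluoxetine and 8.35 and 8.38 without, a difference of 0.40 (SE 0.09, 95% interval 0.19 to 0.61; limma, unadjusted p = 0.00291, adjusted p = 0.383). This probe set lies in the second brightest bin of mean level, where 7.09% of probe sets were higher. The other four probe sets of Tpp2 did not pass. Crhbp, the binding protein that sequesters Crh, picked once its value was known, differed by −0.01 (SE 0.09).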

How the data were processed

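The arrays measured total RNA of prelimbic cortex, biotin-labelled by a 3' protocol, per the labels' protocols. The authors deposited log2 intensities per probe set made with RMA through the affy package, with limma also named, per the submitters' processing notes; versions, background settings and genome build are not given in the sources used here. That these are log2 values was read from the deposited numbers, which ran from −0.08 to 15.14. The table held 45101 probe sets, of which 64 array controls were left out. Gene names came from the platform annotation: 34945 probe sets had 1 symbol, 932 several and 9160 no row there. All 10 member probe sets matched RefSeq by Entrez number.

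Fluoxetine was compared with untreated over all 45037 probe sets with limma 3.58.1 in R 4.3.3 (two-sided; lmFit, then eBayes with the variance trended on intensity), and p-values were adjusted over all of them by Benjamini-Hochberg; the fit had 2 residual and 5.32 prior degrees of freedom. No filter was applied in that fit, probe sets were kept separate, and SEs and 95% intervals are limma's moderated ones. A probe set is called lower or higher at an unadjusted p below 0.05 only where so stated. The code was tested on simulated data. Alternatives were quantile normalization, subtraction of array medians, no intensity trend, probe sets with means above the 25th percentile, probe sets with 1 symbol, 1 probe set per gene (18193), and each array left out, which leaves 1 lone array assumed to vary like the others.

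The members and gene lists were chosen with earlier results of these data known. Named outside the members were list probe sets at an unadjusted p below 0.05 and the brightest receptor probe set of each peptide; likeness to a member's pattern was not ranked over 4 arrays. In the lists, Pcsk2, Agrp, Gnrh1 and Atf1 had no probe set of their own symbol and were not analysed here. Differences of log2 intensity understate those of dim transcripts where background remains. The number of arrays limits the precision. Protein sequences were not used here.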

Additional observations from a re-analysis of the deposited data

How the results depend on the processing

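No paired analysis was possible because the labels give the groups no shared replicate numbers. Over the 10 alternatives, the count of neuropeptide probe sets at an unadjusted p below 0.05 (limma, main value 1) ran from 0 to 2 with an array left out. The receptor count (3) ran from 1 to 6 with an array left out and was 0 with 1 probe set per gene. The binding and degrading count (1) ran from 1 to 2 with an array left out, was 2 after quantile normalization and after median subtraction, and 0 with 1 probe set per gene. The count over all probe sets (3959) ran from 1308, without fluoxetine replicate 1, to 4088 with an array left out, was 4344 after quantile normalization, and was 1266 with 1 probe set per gene, where fewer probe sets were tested. The median difference of the neuropeptide probe sets (−0.09) ran from −0.077 to −0.0090 with an array left out and was −0.049 after median subtraction. Signs turned, all for probe sets that did not pass, for Adcyap1 1423427_at (0.028 after median subtraction, −0.070 to 0.052 with an array left out), Adcyap1 1441778_at (−0.21 to 0.030), Tac2 (−0.0072 after quantile normalization, −0.072 to 0.14), Grp (−0.63 to 0.27) and Sort1 1423362_at (0.0051 after median subtraction). Where the construction of an alternative does not show it, the cause was not tested. Nts kept its sign throughout, from −0.65 to −0.45 with an array left out. Nts, Crhr2 and Prok2 were dim, where background limits the value most.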

Other observations

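A list of transcription factor genes held factors of cyclic AMP response elements, early genes, the repressor gene Rest and the glucocorticoid receptor gene Nr3c1. Its median difference was 0.03, with 17 probe sets positive and 13 negative. Of its 30 probe sets, from 11 of the 12 genes listed, 5 passed as higher and 0 as lower at an unadjusted p below 0.05 in the limma fit and 25 missed it, beside 5.46% higher over all probe sets and 798 and 1236 of the 11259 in each of the 2 brighter bins of mean level, where all 5 lie; 0 passed after adjustment. Creb1, the main factor of that element, read 9.44 and 9.21 with fluoxetine and 9.06 and 8.85 without on 1452901_at. The difference was 0.37 (SE 0.10, limma adjusted p = 0.438). The other Creb1 probe sets did not pass, and the brightest, 1428755_at, differed by −0.02. Crem, whose products include the repressor ICER, differed by 0.33 (SE 0.11) on 1418322_at. Its other probe sets did not pass and disagreed in sign, at 0.18 on 1449037_at, −0.09 on 1430598_at and −0.38 on 1430847_a_at. Fosb, an AP-1 subunit that accumulates with repeated stimulation, differed by 0.29 (SE 0.09). The glucocorticoid receptor gene Nr3c1 was read by probe sets that disagreed in sign. Those that did not pass differed by 0.17 on 1421866_at, 0.06 on 1421867_at and 1460303_at, and −0.29 on 1431378_at. Those that passed differed by 0.41 (SE 0.15) on 1453860_s_at and 0.33 (SE 0.11) on 1457635_s_at. Each of these 5 lost its call without fluoxetine replicate 1, at 0.26 for Creb1, 0.36 for Crem, 0.23 for Fosb, and 0.27 and 0.16 for Nr3c1. The call also ended without untreated replicate 2 for Creb1 (0.26) and both Nr3c1 probe sets (0.28 and 0.35), without untreated replicate 1 for Crem (0.19), Fosb (0.26) and Nr3c1 1457635_s_at (0.32), and without fluoxetine replicate 2 for Crem (0.29). For Nr3c1 1457635_s_at it also ended without the intensity trend (limma, unadjusted p = 0.0661).

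At an unadjusted p below 0.05, 5.46% of all probe sets were higher and 3.33% lower. Among genes that process or store peptide precursors, 1 of 10 probe sets was higher and 0 lower at that threshold. It was Pcsk1, the prohormone convertase, at 7.31 and 7.27 with fluoxetine and 6.93 and 7.03 without, a difference of 0.31 (SE 0.10; limma, unadjusted p = 0.0171, adjusted p = 0.471). Pcsk1 lies in the second brightest bin of mean level, where 7.09% of probe sets were higher. It did not pass without either fluoxetine array (0.29 and 0.32) or without untreated replicate 1 (0.26). Of 33 probe sets of other neuropeptides, from 23 of the 25 genes listed, 0 were higher and 2 lower, beside 5.46% and 3.33% of all. The 2 were Avp, the vasopressin precursor, by −0.33 (SE 0.13), and a probe set of Prok2, 1451952_at, by −0.41 (SE 0.17), which read between 1.78 and 2.29. Avp lies, like Nts, in the bin of mean level where 512 probe sets were lower and 266 higher. This Prok2 probe set lies in the dimmest bin, where 542 were lower and 159 higher. Both lost their call after quantile normalization, at −0.27 and −0.34, after median subtraction, at −0.29 and −0.37, and in 3 of the 4 fits with an array left out for Avp and 4 of the 4 for Prok2. Prok2 was also read by the brighter 1419681_a_at and 1426176_a_at, which differed by −0.004 and −0.08, with groups that overlapped. The interneuron peptides Sst, Npy and Vip, picked once their values were known, differed by −0.10 (SE 0.05), −0.09 (SE 0.06) and 0.09 (SE 0.07), and did not pass.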
